A study of Mus musculus with 12 samples.

Results

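The ancient L1 families are the rows of the repeat table whose names begin with L1MA, L1MB, L1MC, L1MD, L1ME or HAL1, and 54 of the 1217 families in the table carry such a name. They comprise 9 L1MA, 7 L1MB, 10 L1MC, 6 L1MD, 17 L1ME and 5 HAL1 families. The rule used names only and no measured value, but it was set with earlier results of these data known. HAL1N1_MD had 0 reads in all 12 libraries, and the other 53 families passed the filter on low values that left 1097 families to test.

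L1 elements (LINE-1) copy themselves through an RNA that is reverse transcribed at the insertion site. The L1M lineages are older than the rodent-specific L1 lineages, with L1MA the younger and L1ME the older end of the series. L1M copies are degraded and no longer move. HAL1 elements are relatives of L1 that keep a reading frame like the first of L1 and lack the frame for the reverse transcriptase. Such old copies lie within introns and between genes, so RNA that carries their sequence can come from longer transcripts that contain a copy as well as from a copy's own promoter, and reads per family do not separate these sources. SETDB1 is a methyltransferase that places trimethylation on lysine 9 of histone H3 and is best known in embryonic stem cells for holding endogenous retroviruses silent.

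RNA depleted of ribosomal RNA was sequenced from E14 mouse embryonic stem cells of the 129/Ola background, grown without feeders. Serum cells, called primed in the labels, had fetal bovine serum and LIF. The 2i cells, called naive in the labels, had N2, B27 and LIF with PD0325901, an inhibitor of MEK, and CHIR99021, an inhibitor of GSK3. In each medium the cells received a lentiviral pLKO.1 vector with a non-targeting shRNA (shScr, the control) or an shRNA against Setdb1 (shSetdb1, the knockdown). All 4 groups were put under 1 µg/ml puromycin 48 hours after infection and were harvested once selection had lasted 3 days, so controls also carried a vector and were drug selected. Each group held 3 libraries, numbered 1 to 3. All came from 1 cell line, with no rescue and no other shRNA named in the labels, so depletion of SETDB1 and other effects of this vector cannot be told apart. The labels do not say whether replicates were separate cultures, so the p-values rest on a spread between libraries that may be technical.

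Libraries held 4821181 to 15509401 gene reads and 4407665 to 8962913 repeat reads. Reads of structural RNAs and tRNAs made up 24.2 to 48.3% of repeat reads for serum controls and 15.6 to 42.6% for serum knockdowns. In 2i they made up 32.1 to 64.6% for controls and 19.9 to 69.5% for knockdowns. Families were listed by name, and names beginning with LSU or SSU, which denote ribosomal RNA, were admitted. The part of leftover ribosomal RNA in these shares was not tested. The libraries richest in structural RNA and tRNA were replicate 3 of each group and replicate 2 of the 2i knockdown. All 8 embryonic stem cell markers were detected in every group, and their summed level ran from 37851 to 80036 normalised gene reads per library. Summed levels of 5 primitive endoderm, 4 trophoblast and 4 fibroblast markers stayed between 0 and 132 per library, and 2 neural markers between 105 and 565. Between the control groups, the 5 naive-state markers summed to 5202 to 10451 reads in serum and 11300 to 19953 in 2i, and 3 mesoderm markers to 0 to 19.5 and 70.3 to 175, with 1 of the 3 at 0 in each group. Trophoblast markers were at 10.7 to 24.9 in serum controls and 45.5 to 93.1 in 2i controls, and primitive endoderm markers at 94.4 to 132 and 29.6 to 64.6. The part of these shifts in the comparison of the media was not tested. After knockdown the naive-state markers summed to 3133 to 5615 reads in serum and 8548 to 18558 in 2i, ranges that overlapped their controls. Their part in the knockdown comparisons was not tested. Setdb1 fell in serum from 2959, 2237 and 1587 to 418, 379 and 409 normalised reads, with an adjusted p of 0.00219 by limma for its log2 change (−2.33, SE 0.33). In 2i it fell from 3607, 2724 and 2253 to 837, 610 and 340 (−2.24, SE 0.33, limma adjusted p = 0.00173).

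The summed reads of the ancient L1 families were a small and variable part of the repeat reads. In replicates 1, 2 and 3 the serum control had 1.32, 0.99 and 0.91% of its repeat reads from these families, and the serum knockdown had 1.18, 1.29 and 0.83%. The 2i control held 1.11, 1.24 and 0.43%, and the 2i knockdown 1.03, 0.60 and 0.32%. The lowest share in every group was in replicate 3, where structural RNA took most. Among repeat reads other than structural RNA and tRNA, the ancient L1 share of the serum control was 1.75, 1.41 and 1.76%, and that of the serum knockdown 1.41, 1.53 and 1.45%. The 2i control had 1.64, 2.03 and 1.22% by this measure, and the 2i knockdown 1.29, 1.34 and 1.04%. On this denominator the control groups overlapped, with means of 1.64 ± 0.196% in serum and 1.63 ± 0.405% in 2i (SD, n = 3). The 95% Wilson intervals of all these shares were at most 0.0454 percentage points to either side and cover counting error only.

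Set against gene reads, the same families were lower in the 2i control. The serum control had 6.53, 4.94 and 7.92 of their reads per 1000 gene reads, and the serum knockdown had 5.27, 6.80 and 5.05. The 2i control had 3.16, 3.79 and 3.34, and the 2i knockdown had 5.17, 4.70 and 4.92. All 3 libraries of the 2i control lay below the other 9 libraries. Whether the ancient L1 families appeared lower in 2i control cells therefore depended on what they were divided by, and the tests below are read with that in view.

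**Figure D1:**
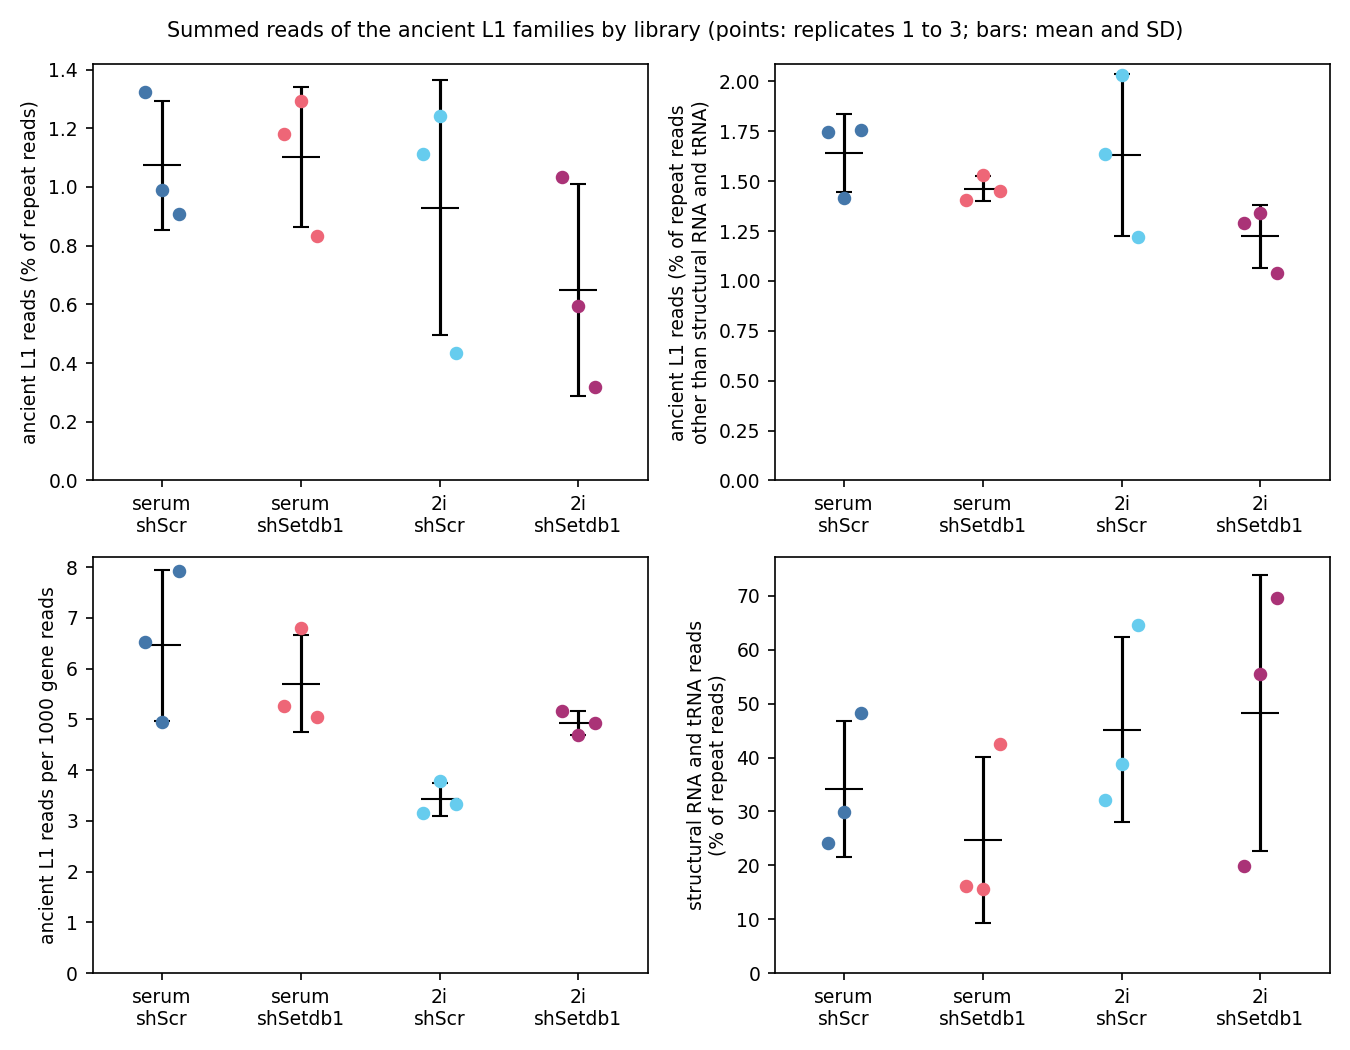
Summed reads of the ancient L1 families in each library (points, replicates 1 to 3 from left to right; bars, mean and SD of 3) as a percentage of all repeat reads, as a percentage of repeat reads other than structural RNA and tRNA, and per 1000 gene reads, with the percentage of repeat reads from structural RNA and tRNA in the last panel. The 2i control stands below the other groups per 1000 gene reads (3.16 to 3.79) and overlaps the serum control on the non-structural denominator.

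Levels of single families ran over a wide range. HAL1, HAL1-3A_ME, L1MB7, L1ME1, L1MEg and L1MB8 were among the families with most reads, and over the 12 libraries HAL1 totalled 47150, L1MB7 47447 and L1ME1 31739 raw reads. L1ME5 had 230, L1MEg2 276 and L1MEg1 416. These are reads per family and not per length, so they do not rank the families by transcription. The deposited values are on a log2 scale, normalised reads are the reads recovered from them after each library is scaled by the authors' size factor, and folds are ratios of mean normalised reads.

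Replicates of a group moved as whole libraries rather than family by family. Serum control replicate 2 was the lowest of its group for 44 of the 53 families and serum knockdown replicate 3 for 46. In 2i, control replicate 3 was the lowest for 35 families and knockdown replicate 3 for 42, while knockdown replicate 1 was the highest for 48. The 1044 tested families outside these names had the same 4 libraries lowest in their groups, for 52.8, 58.3, 46.5 and 58.9% of families in the same order. These shares are a description, because families of 1 library are not independent. The median coefficient of variation within a group was 19.9% in the serum control, 19.4% in the serum knockdown, 23.1% in the 2i control and 28.7% in the 2i knockdown.

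**Figure D2:**
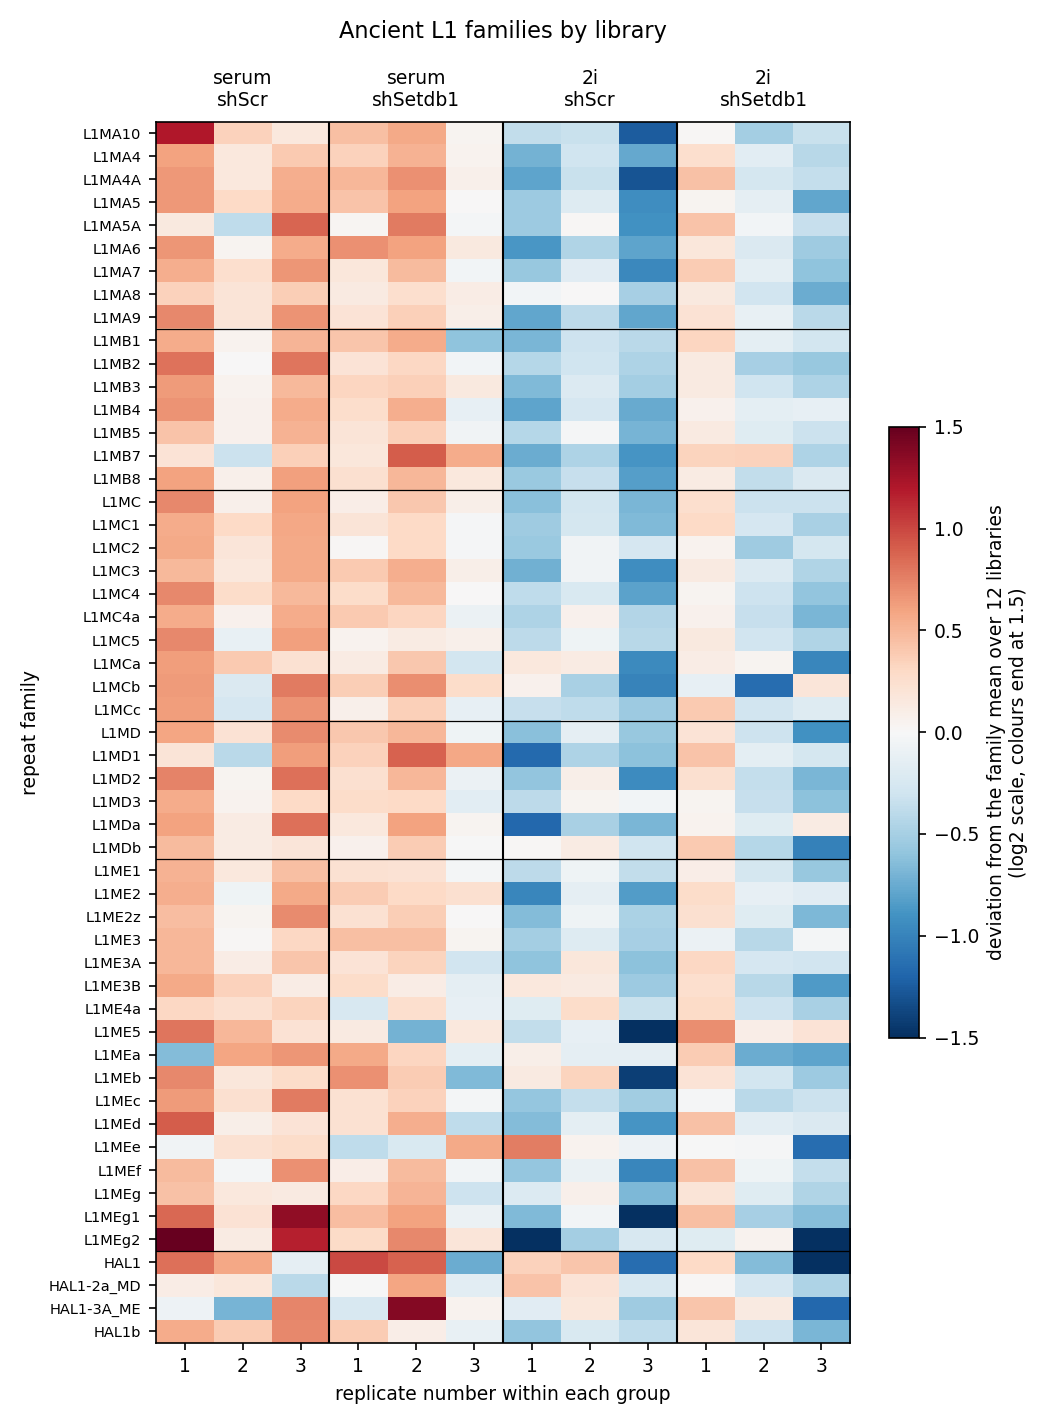
Each row is one of the 53 tested families, each column a library, and the colour is the deviation from that family's mean over the 12 libraries on the log2 scale (red higher, blue lower, colours end at 1.5). The 3 columns of the 2i control are blue for most families, and single columns such as serum control replicate 2 differ from their group across nearly all rows.

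The first comparison asked whether control cells differed between the media, since later knockdown changes in 2i start from the 2i control. In control cells, 25 of the 53 ancient L1 families were lower in 2i than in serum and 0 were higher (limma, adjusted p under 0.05), with 39 at an unadjusted p under 0.05. Over all 1097 families tested, 16.6% were lower and 0.547% higher, with 397 at an unadjusted p under 0.05. Among the 1044 families of other names, 157 or 15.0% were lower. The ancient L1 families had a median log2 change of −0.87, where all families had −0.52. Negative changes numbered 51 of the 53, and 888 of all 1097. For 38 of them all 3 libraries of the 2i control lay below all 3 of the serum control, as did 39.1% of all families tested.

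That count rested on few libraries and on the scaling of the repeat table. It was 0 without serum control replicate 1, 0 without serum control replicate 3, 0 without 2i control replicate 1 and 1 without 2i control replicate 3. Without serum control replicate 2 it was 36, with 22.2% of all families lower. Without 2i control replicate 2 it was 31, with 17.2% of all families lower. The size of the change moved less than the calls, with a median of −1.05 to −0.75 without 1 library against −0.87 with all. In the 4 fits with 0 or 1 ancient L1 families, 0.456, 0.456, 0.729 and 1.28% of all families were lower. The deposited scaling put the median change of all families at −0.52, and scalings that brought this near 0 left fewer calls among all families and among these. Centred on the median family, 12 families passed, L1MA4, L1MA4A, L1MA5, L1MA6, L1MA9, L1MB4, L1MB8, L1MC, L1MC1, L1MC4, L1MDa and L1MEc, and 4.19% of all families were lower. After quantile normalisation only L1MA6 and L1MA9 passed, with 1.46% of all families lower, and with median-of-ratios size factors computed from the repeat reads only L1MA9, with 0.912%. When the gene table's size factors were used, 42 passed and 33.7% of all families were lower. The median change of the ancient L1 families was negative in every setting run, from −1.05 to −0.29, and lay below the median of all families in the scalings shown in the plot of 5 scalings. The share of structural RNA was 34.2 ± 12.6% in the serum control and 45.2 ± 17.1% in the 2i control (SD, n = 3). With that share as a covariate 29 ancient L1 families passed, with a median of −0.78, and 22.4% of all families were lower.

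**Figure D3:**
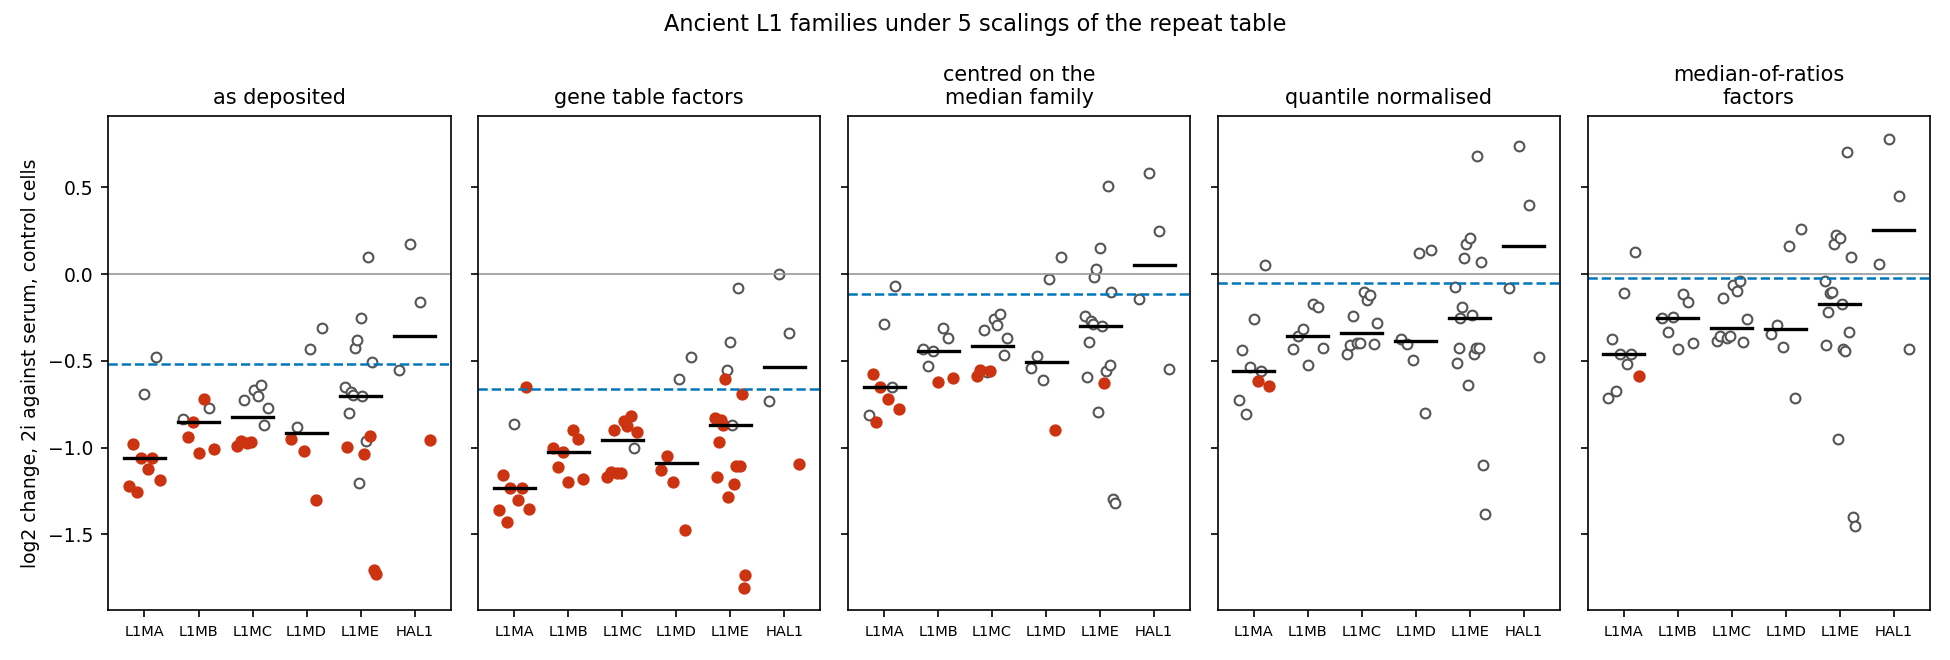
Log2 change of each ancient L1 family between 2i and serum in control cells under 5 scalings of the repeat table, by name group (filled red points pass at an adjusted p under 0.05, open points do not; black bars, median of the name group; dashed blue line, median of all families tested). The L1MA median is the lowest of the 6 name groups and the HAL1 median the highest in all 5 panels, while the number of passing families goes from 42 to 1.

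By name group, the L1MA families stood lowest. Of 9 L1MA families 7 were lower in the 2i control, with a median log2 change of −1.06. Of 7 L1MB families 5 were lower (median −0.85), of 10 L1MC families 4 (−0.82), of 6 L1MD families 3 (−0.92) and of 17 L1ME families 5 (−0.70). Of 4 HAL1 families 1 was lower (−0.36). Relative to the shift of all families, the L1MA median was −0.65 after centring on the median family, −0.56 after quantile normalisation and −0.46 with median-of-ratios factors, and the HAL1 median turned positive there, at 0.05, 0.16 and 0.25. No test of the difference between name groups was made. The 25 families that passed had a median of 1131 mean normalised reads and the 28 that did not had 722, so both sets included well-covered families.

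L1MA9, a younger member of the series, had 1538, 1061 and 1488 normalised reads in serum and 529, 695 and 528 in 2i control cells. The groups did not overlap, and the mean was 2.33-fold lower in 2i (log2 change −1.18, SE 0.24, limma adjusted p = 0.0133). L1MA6 went from 2675, 1737 and 2477 to 911, 1220 and 961 reads, 2.23-fold lower (−1.13, SE 0.25, limma adjusted p = 0.0164). L1MA4, with the most reads of its name group, went from 2870, 2102 and 2475 to 1138, 1524 and 1088 (−0.98, SE 0.24, limma adjusted p = 0.0218). In all of them serum control replicate 2 was the lowest of the serum controls and still lay above every 2i control. The changes of L1MA4A, L1MA5, L1MA7 and L1MA10 were −1.26, −1.06, −1.06 and −1.22, and all 4 passed. L1MA10 had only 40 to 93 reads in the 2i control.

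L1MB8 had 3602, 2497 and 3630 reads in serum and 1604, 1853 and 1328 in 2i control cells, 2.03-fold lower (−1.01, SE 0.23, limma adjusted p = 0.0164). L1MB7, the L1MB family with most reads, had 4192, 2897 and 4658 against 2156, 2635 and 1969, groups that did not overlap, but its change of −0.77 (SE 0.28) did not pass (limma adjusted p = 0.0664). Among L1MC families, L1MC4 went from 3461, 2542 and 2947 to 1603, 1784 and 1190 reads (−0.97, SE 0.24, limma adjusted p = 0.0228). L1MC1 went from 2389, 1998 and 2424 to 1113, 1341 and 1017 (−0.96, SE 0.23, limma adjusted p = 0.0218). Each was 1.96-fold lower, with every 2i control below every serum control.

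L1MDa showed the largest change among passing families with over 100 reads in every library. It had 1108, 790 and 1307 reads in serum and 307, 510 and 440 in 2i control cells, 2.55-fold lower (−1.30, SE 0.26, limma adjusted p = 0.0133). Its call was lost without serum control replicate 1 (adjusted p = 0.0817) or 3 (0.0845) or without 2i control replicate 1 (0.0746), where its changes were −1.26, −1.15 and −1.11. It was also lost with quantile normalisation (0.0545) and with median-of-ratios factors (0.0695), where its changes were −0.80 and −0.71. L1MD, with 2187, 1681 and 2384 against 927, 1317 and 964 reads, was also lower (−0.95, SE 0.28, limma adjusted p = 0.0334). L1MD2 had 1529, 932 and 1617 against 592, 959 and 460 reads. It passed (−1.02, limma adjusted p = 0.0379) although the highest 2i control lay above the lowest serum control.

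Changes of the 17 L1ME families ran from −1.73 to 0.10. L1MEc went from 1917, 1449 and 2132 to 815, 957 and 848 reads, 2.10-fold lower (−1.04, SE 0.22, limma adjusted p = 0.0159). L1MEg1 and L1MEg2 passed with changes of −1.70 and −1.73 but had few reads, at 63.1, 33.3 and 94.9 against 10.9, 25.1 and 0 for L1MEg1 and 81.0, 18.1 and 56.5 against 0, 6.76 and 10.8 for L1MEg2. L1ME1, with 3685, 2853 and 3512 against 1946, 2450 and 1980 reads, did not overlap between the groups and had a change of −0.65 (SE 0.23, limma adjusted p = 0.0590). L1MEg had 3283, 2689 and 2657 against 2097, 2542 and 1509 reads (−0.51, adjusted p = 0.177). L1MEe had 1776, 2159 and 2240 reads in serum and 3151, 1913 and 1750 in 2i control cells, and its change of 0.10 had a 95% interval of −0.61 to 0.80.

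The HAL1 families differed among themselves. HAL1b, with 187, 164 and 212 reads in serum and 72.6, 99.4 and 87.4 in 2i control cells, was 2.17-fold lower (−0.96, SE 0.30, limma adjusted p = 0.0379). HAL1-2a_MD had 1350, 1410 and 936 reads in serum and 1695, 1444 and 1057 in 2i control cells (0.18, 95% interval −0.39 to 0.74), and the change was −0.00 with the size factors of the gene table and −0.01 without serum control replicate 3. HAL1-3A_ME had 2357, 1526 and 4130 against 2211, 2803 and 1710 reads (−0.16, 95% interval −1.13 to 0.81), and its sign turned with centring (0.25), quantile normalisation (0.40) and median-of-ratios factors (0.45). HAL1 itself had 5845, 4932 and 3005 against 4200, 4396 and 1476 reads (−0.55, 95% interval −1.67 to 0.57), and 0.06 with median-of-ratios factors. HAL1 was lowest in replicate 3 of all 4 groups, the libraries of their groups with the largest share of structural RNA, and the part of that share in its level was not tested.

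**Figure D4:**
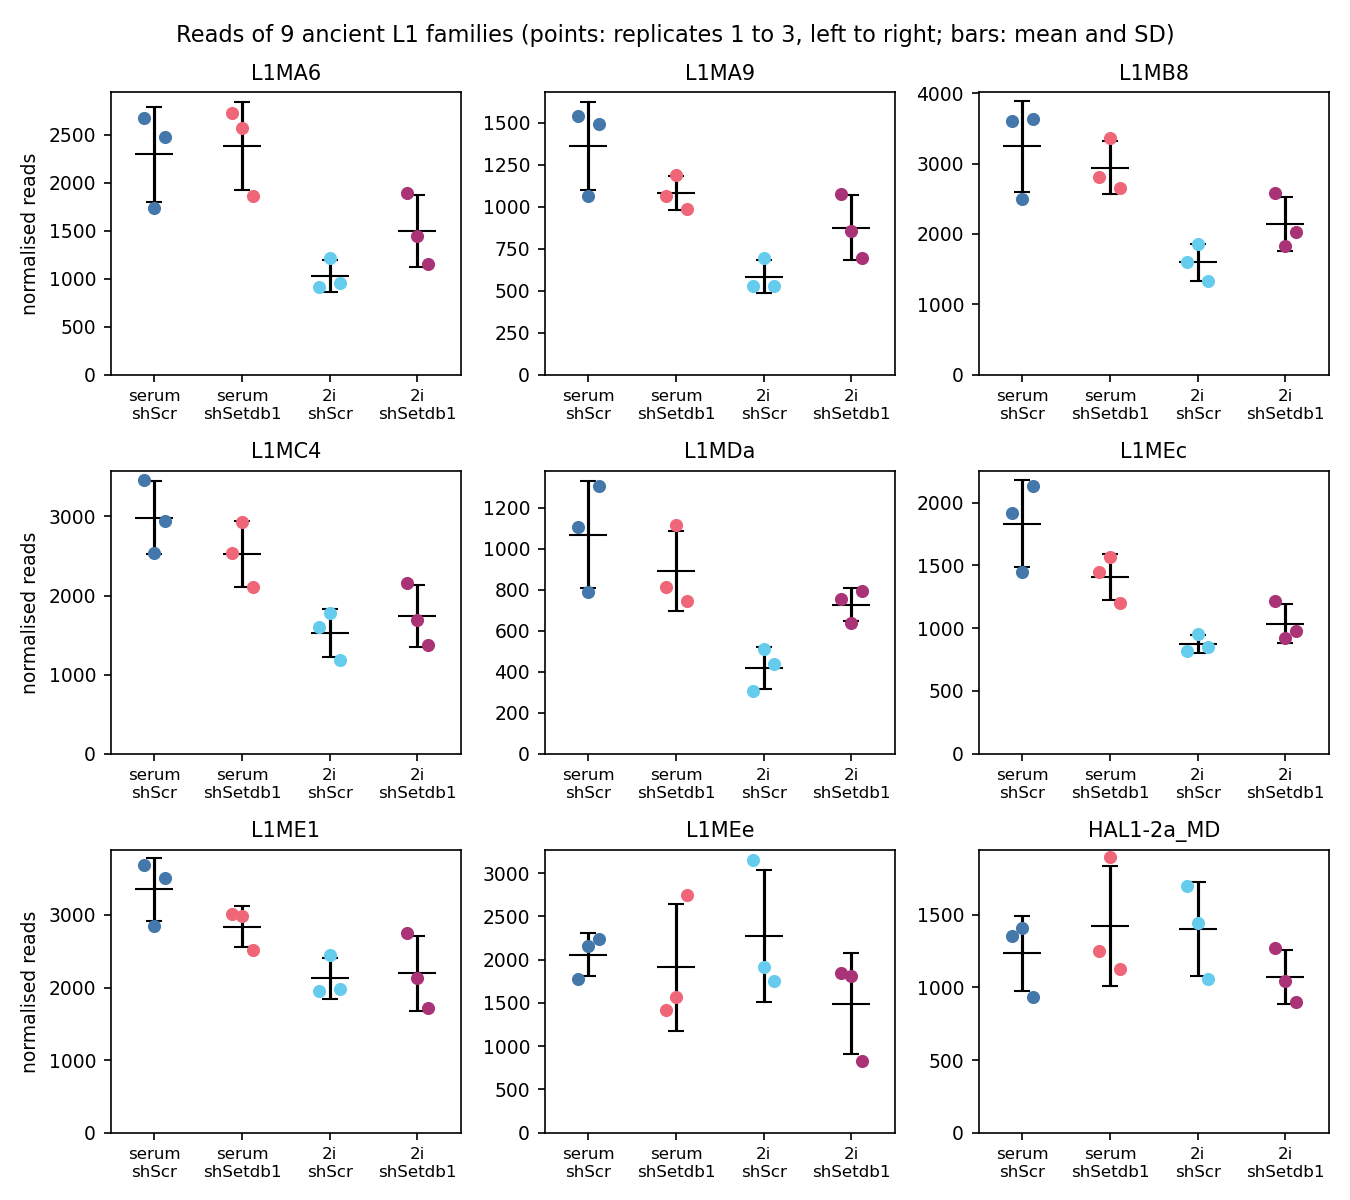
Normalised reads of 9 ancient L1 families in the 12 libraries (points, replicates 1 to 3 from left to right in each group; bars, mean and SD of 3; axes start at 0). In the top row and in L1MC4, L1MDa, L1MEc and L1ME1 the 3 libraries of the 2i control lie below those of the serum control, while L1MEe and HAL1-2a_MD overlap between the groups.

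Other repeat families in the same comparison are given for scale. Of 34 rodent-specific L1 families 20 were lower in the 2i control, with a median of −0.97. Of 22 tested old L1 families of other names 5 were lower (−0.77), and of 92 MaLR families, LTR elements not chosen by age, 36 were lower (−0.74). Of 7 families of L2, L3 and CR1, other lineages of old LINE elements, 0 passed (median −0.30), nor did any of 5 MIR families (−0.37) or 77 families of structural RNA and tRNA (−0.18). L1Md_A, a young mouse L1, had 280096, 216902 and 160270 reads in serum and 87365, 53451 and 31429 in 2i control cells (−2.02, SE 0.62, limma adjusted p = 0.0379).

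The knockdown in serum left the ancient L1 families without a change that passed. In serum, 0 of 53 passed in either direction (limma), 0 had an unadjusted p under 0.05, limma voom on the recovered reads also called 0, and the smallest adjusted p was 0.857. Over all families, 3.28% were higher and 0.0912% lower, with 103 of 1097 at an unadjusted p under 0.05. The median log2 change was −0.20 for the ancient L1 families and −0.03 for all. Negative changes numbered 44 of the 53, and 589 of all 1097. By name group the medians were −0.13 for L1MA, −0.17 for L1MB, −0.26 for L1MC, −0.19 for L1MD, −0.25 for L1ME and 0.07 for HAL1. The median without 1 library ranged from −0.34, without serum control replicate 2, to −0.06, without serum knockdown replicate 3, so its size rested on the replicates that stood low for nearly every family.

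L1MB7 had the largest positive change in serum, from 4192, 2897 and 4658 to 4098, 6881 and 5387 reads (0.47, 95% interval −0.12 to 1.07). L1ME5 had the largest negative one, from 40.5, 29.5 and 21.2 to 19.1, 4.65 and 19.7 (−0.64, limma adjusted p = 0.924). L1MA6, at 2727, 2569 and 1858 reads after knockdown, overlapped its controls (0.06, 95% interval −0.48 to 0.60). L1MDa at 813, 1114 and 746 and L1MC4 at 2539, 2931 and 2104 also overlapped theirs. In 3 families, HAL1b, L1MC1 and L1ME5, every knockdown library lay below every control library, as did 4.83% of all families.

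The same libraries showed large changes in endogenous retroviruses. IAPEz-int, the internal part of the intracisternal A particle, rose from 13392 ± 842 to 50228 ± 19700 normalised reads in serum (SD, n = 3), MMERVK10C-int 11.2-fold and MMERGLN-int 67.7-fold. In 2i they rose 17.1-, 9.57- and 30.3-fold. Of 18 families of these 3 kinds 10 passed as higher in serum and 17 in 2i.

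The knockdown in 2i also left the ancient L1 families without a change that passed. In 2i, 0 of 53 ancient L1 families passed (limma), and 0 by limma voom on the recovered reads, while 10.4% of all families were higher and 0.0912% lower. An unadjusted p under 0.05 was found for 7 of the 53 and for 253 of all 1097. The median log2 change was 0.23 for the ancient L1 families and 0.24 for all. Positive changes numbered 41 of 53, and 773 of all 1097. The direction depended on the scaling. The median was −0.12 centred on the median family, where 1 ancient L1 family and 2.28% of all families were lower. It was −0.16 after quantile normalisation, where 8 and 7.47% were lower, and −0.07 with median-of-ratios factors, where 1 and 2.19% were lower. With the size factors of the gene table it was 0.68, where 24 and 30.7% were higher, and the median of all families was 0.62. No direction of the ancient L1 families in 2i can therefore be given that holds under all of them. L1MD3, named here after its values were seen, was the 1 family lower under centring and under median-of-ratios factors.

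By name group, the 2i knockdown medians were 0.49 for L1MA, 0.42 for L1MB, 0.15 for L1MC, 0.16 for L1MD, 0.21 for L1ME and −0.20 for HAL1. The L1MA and L1MB medians were also the highest after centring (0.14 and 0.07) and with median-of-ratios factors (0.17 and 0.10). After quantile normalisation the L1MA median was 0.04 and the L1MB median −0.11. This comparison shares its 2i control libraries with that of the media, in which the L1MA families were lowest, so the orders of the name groups in them are not independent.

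L1MDa came nearest to the threshold in 2i, with 307, 510 and 440 reads in the controls and 755, 637 and 792 after knockdown. Its groups did not overlap, and the change was 0.79 (SE 0.26, limma adjusted p = 0.0658). L1MB7 had 2156, 2635 and 1969 reads in the controls and 4589, 4647 and 2634 after knockdown (0.77, SE 0.28, limma adjusted p = 0.104). L1MA9 had 1077, 855 and 693 reads after knockdown against 529, 695 and 528 (0.55, 95% interval 0.05 to 1.06, limma adjusted p = 0.173). L1ME5 had the largest positive change, from 9.07, 13.5 and 0 to 36.4, 18.4 and 20.8 reads (1.03, SE 0.43, limma adjusted p = 0.155). L1MEe had the largest negative change, from 3151, 1913 and 1750 to 1843, 1813 and 824 (−0.64, limma adjusted p = 0.271). In 6 families every knockdown library lay above every control library, 11.3% of the 53, where 22.3% of all families did so. Of the 34 rodent-specific L1 families 7 were higher in 2i (median 0.81). L1Md_T, L1Md_A and L1Md_Gf did not pass in either medium.

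**Figure D5:**
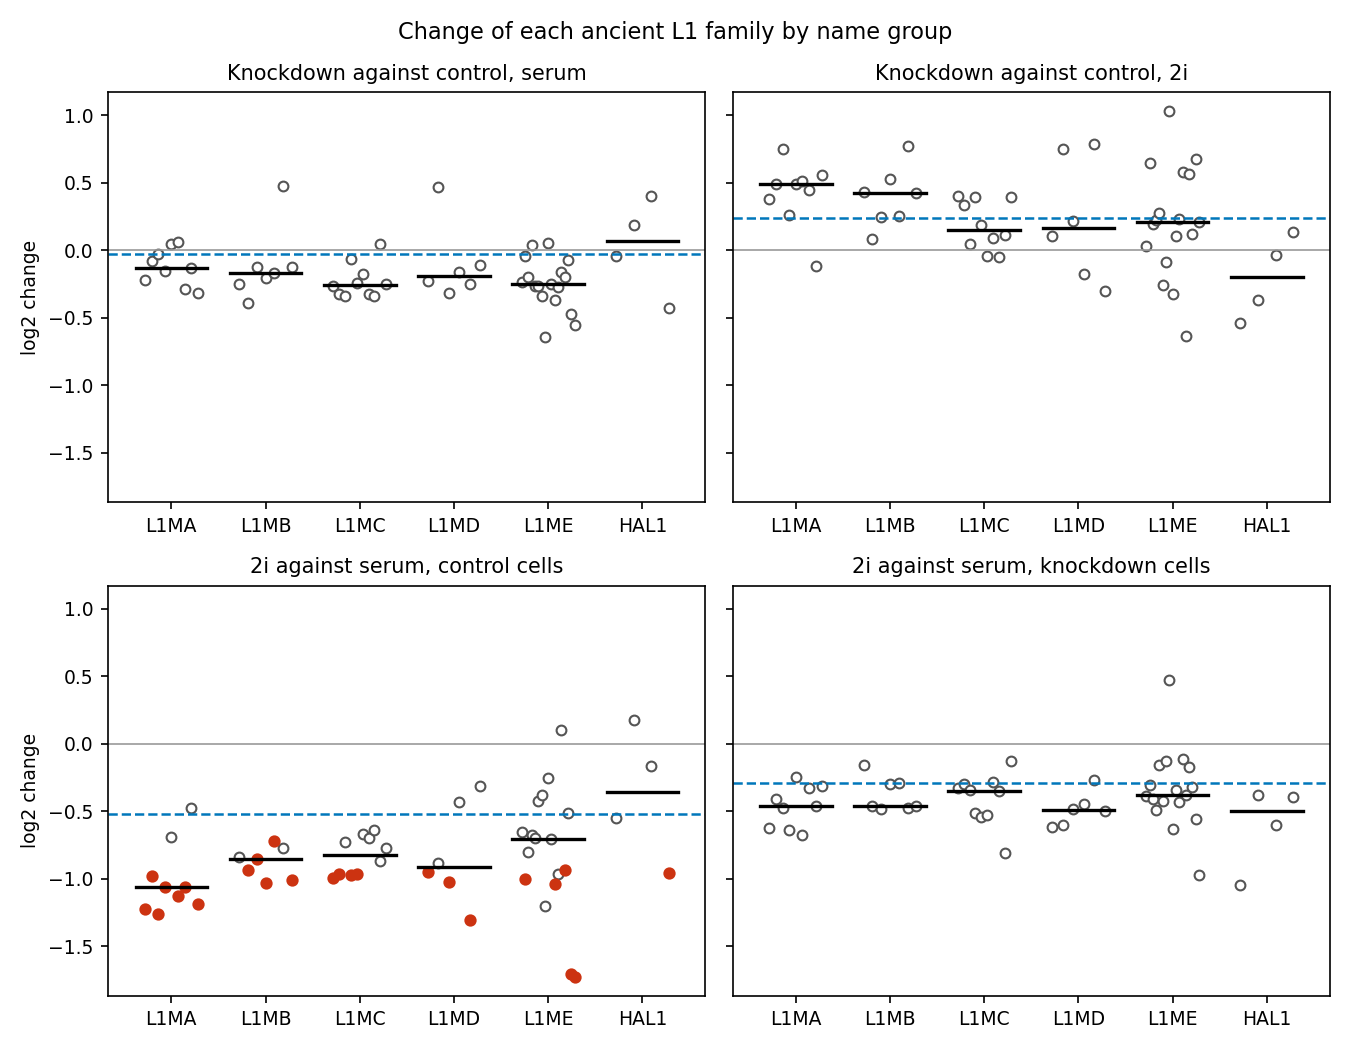
Log2 change of each ancient L1 family in 4 comparisons, by name group (filled red points pass at an adjusted p under 0.05, open points do not; black bars, median of the name group; dashed blue line, median of all families tested). Passing points occur only in the comparison of 2i with serum in control cells, 25 in all.

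The knockdown changes were then compared between the media. The difference, 2i minus serum, had a median of 0.42 over the ancient L1 families and 0.31 over all families. Positive differences numbered 46 of 53, and 776 of all 1097. Of the 53, 0 passed (limma, and 0 by limma voom), as against 0.182% of all families. An unadjusted p under 0.05 was found for 3 of the 53 and for 104 of all 1097. The median difference was 0.13 after centring on the median family, 0.11 after quantile normalisation, 0.09 with median-of-ratios factors and 0.95 with the size factors of the gene table. L1ME5 had the largest difference, 1.68 (SE 0.60, limma adjusted p = 0.490). HAL1-2a_MD had the most negative one, −0.56 (SE 0.37, limma adjusted p = 0.572), from 0.19 in serum and −0.37 in 2i.

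In knockdown cells no ancient L1 family passed between the media. The median log2 change from serum to 2i was −0.41 for the ancient L1 families and −0.29 for all. Negative changes numbered 52 of the 53, and 816 of all 1097. Of the 53, 0 passed (limma, and 0 by limma voom), with 0.547% of all families passing in either direction. An unadjusted p under 0.05 was found for 4 of the 53 and for 122 of all 1097. Without the 3 2i libraries richest in structural RNA, which leaves 1 2i knockdown library, the median was −0.02. The difference between this change and that in control cells is the difference of the knockdown changes, for which no ancient L1 family passed. HAL1 had the largest negative change here, from 6571, 6092 and 1967 to 4068, 2099 and 1030 reads (−1.04, limma adjusted p = 0.425), with the low replicate 3 in both groups. Across the 4 group means, the serum control was the highest for 44 of the 53 families and the 2i control the lowest for 41. This order was not counted over all families. The median of all tested families, averaged over libraries on the log2 scale, was also lowest in the 2i control, at 7.53. It was 7.88 in the 2i knockdown, 7.93 in the serum control and 7.99 in the serum knockdown.

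Genes tied to the control of L1 were followed in the gene table as a list of 39, called the silencing list, all of them tested. Among others it held the H3K9 methyltransferases and their partners, the HUSH complex with its MORC partners, heterochromatin proteins, DNA methylation enzymes and restriction factors of L1 RNA. It also held Tet1, Tet2 and L1td1, so its members need not act on L1 in the same direction. In serum, 1 gene of the list passed after knockdown, Setdb1 itself, where 0.649% of all 14487 genes tested passed. With a block for the replicate number, 2 passed, Setdb1 and Tet2, an enzyme that oxidises methylcytosine, which had a log2 change of −1.16 (adjusted p = 0.255 without the block). The share of all genes passing with the block was not counted, here or in the comparisons below. The median of the list was 0.14 and that of all genes −0.00.

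In 2i, 2 genes of the list passed, Setdb1 and Atf7ip2, and 1.27% of all genes passed. With a block for the replicate number 4 passed, Setdb1, Atf7ip2, Atf7ip and 2810474O19Rik (Resf1), with no count over all genes beside them. Atf7ip2, a paralog of the SETDB1 partner ATF7IP, rose from 211, 284 and 345 to 545, 731 and 1150 normalised reads (1.36, SE 0.31, limma adjusted p = 0.0453), with no overlap of the groups. The list median was −0.20 and that of all genes 0.01. The call of Atf7ip2 was lost with limma voom and without any 1 of 5 of the 6 libraries compared, 2i knockdown replicate 1 being the exception. In control cells 2 genes of the list passed between the media, where 3.62% of all genes passed, and the list median was −0.15 against −0.05 for all genes. With the replicate block 6 passed, Dnmt3a, Zc3hav1, Dnmt3l, Tet1, Tet2 and 2810474O19Rik, and the 3.62% is from the fit without it. Dnmt3a, a de novo DNA methyltransferase, had 1335, 1473 and 781 reads in serum and 293, 281 and 114 in 2i, 5.21-fold lower (−2.23, SE 0.46, limma adjusted p = 0.0144), and did not pass without serum control replicate 1 or 2 or without 2i control replicate 3. Zc3hav1, a zinc finger antiviral protein that acts on L1 RNA, had 318, 267 and 520 reads in serum and 1120, 1671 and 1289 in 2i, 3.69-fold higher (1.80, SE 0.31, limma adjusted p = 0.00483), and passed without each library in turn.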

How the data were processed

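The authors deposited 1 table of genes and 1 of repeat families on a log2 scale, made by a variance-stabilising transformation, and each library is a column. Tools named in the submitters' processing notes are DESeq2, TopHat2 2.0.9 and Trim Galore 0.3.3, and the build is mm9. How repeats were annotated and counted, by strand or not, and what became of multiply mapping reads is not given in the sources used here, so similar families are uncertain. Inverting the transformation gave whole reads within 0.01 for 100% of values. The size factors of the repeat table came out as numbers with 3 decimals and a mean of 1.00, and were not those of the median-of-ratios method.

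Tests on the deposited values were made in R 4.3.3 by limma 3.58.1, with 1 mean per group over 12 libraries, 8 residual degrees of freedom, a variance trend, and features at least 0.5 above the lowest value of the table. Tests were two-sided, with Benjamini-Hochberg adjustment over the table, passing at 0.05. The pipeline was run on simulated reads drawn independently for each family and library. They held no shifts of whole libraries such as those seen here, so that run does not bear on calls that depend on them. Tables were tested separately, and shares across them use raw reads. Log2 changes are too small for families with few reads.

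Families named are the passing ones with the 10 largest changes, every HAL1 family, the 2 with most reads in each name group and the extremes of each comparison. Members and lists were chosen with earlier results of these data known. Numbered replicates deviated together in the gene table in serum (correlations 0.582, 0.234 and 0.510). In 2i the correlations were 0.456, 0.057 and 0.524. Between the media in control cells they were 0.232, −0.177 and 0.219, so numbered replicates did not all deviate together there. Blocked counts stand beside the gene results as an alternative. Alternatives were scalings, filters, voom, a structural RNA covariate, a replicate block and leaving out libraries. The scalings by median-of-ratios and gene table factors, and leaving out 3 libraries together, were added after the data were seen.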

Additional observations from a re-analysis of the deposited data

Results flagged for a closer look

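The knockdown libraries of L1ME5 lay on opposite sides of their controls in the 2 media, though neither change passed. All 3 serum knockdown libraries (19.1, 4.65 and 19.7 normalised reads) lay below the serum controls (40.5, 29.5 and 21.2), and all 3 2i knockdown libraries (36.4, 18.4 and 20.8) lay above the 2i controls (9.07, 13.5 and 0). The log2 changes were −0.64 (SE 0.43, limma adjusted p = 0.924) and 1.03 (SE 0.43, limma adjusted p = 0.155). Their difference, 2i minus serum, was 1.68 on the log2 scale (SE 0.60, unadjusted p = 0.0133) and did not pass over all families (limma adjusted p = 0.490). The family had 230 reads over all 12 libraries.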

How the results depend on the processing

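Of the counts and medians over the ancient L1 families and the silencing list, 263 values under alternatives equalled or stayed near the first value, and 40 moved. A median was near when within 0.299, and a count when close in fold. Direction was not checked, and counts that stayed at 0 are among the 263, so this tally is not a measure of robustness. Counts of ancient L1 families lower in the 2i control than in the serum control were 12 centred, 2 quantile normalised, 1 with median-of-ratios and 42 with gene table factors, and 0 to 36 without 1 library, with medians of −0.46, −0.40 and −0.29 in the first 3. In the 2i knockdown, 2 ancient L1 families were higher with a replicate block within medium, where 14.6% of all families were higher. With the structural RNA covariate 3 were higher, against 16.2% of all families, and with gene table factors 24, against 30.7%. Without 1 library 0 to 1 were higher, against 6.47 to 10.9% of all families. When centred, quantile normalised or with median-of-ratios factors 1, 8 and 1 were lower, against 2.28, 7.47 and 2.19% of all families. The median change in the 2i knockdown was −0.12, −0.16 and −0.0676 in these settings, and 0.68 with gene table factors. The median difference between the media was 0.11, 0.0941 and 0.95 with quantile normalisation, median-of-ratios and gene table factors. The median from serum to 2i in knockdown cells was −0.0827 with gene table factors and −0.0192 without the 3 libraries rich in structural RNA.

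Signs turned for HAL1 (0.0587, median-of-ratios), HAL1-2a_MD (−0.0019 with gene table factors, and −0.0068 to 0.36 without 1 library, the lowest being without serum control replicate 3), HAL1-3A_ME (0.25 centred, 0.40 quantile, 0.45 median-of-ratios, 0.0170 without 2i control replicate 3 or without the 3 libraries, and −0.50 to 0.21 without 1 library, the highest being without serum control replicate 3), L1MEg (0.0698 quantile, 0.0994 median-of-ratios) and L1MEe (−0.0810 gene table factors, −0.00358 without serum control replicate 1, and −0.16 to 0.26 without 1 library, the lowest being without 2i control replicate 1); none of these passed in either direction, and the cause was not tested.

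Numbered replicates of the repeat table did not all deviate together (correlations 0.209, 0.042 and 0.239 in serum, 0.397, −0.025 and 0.456 in 2i). Between the media the correlations were 0.091, −0.11 and 0.177 in control cells and 0.367, 0.016 and 0.416 in knockdown cells. With the replicate block 34 ancient L1 families were lower in the 2i control, where 24.2% of all families were lower. From serum to 2i in knockdown cells 1 was lower with this block, with no share over all families given here. Silencing genes passing with the block numbered 2 in serum, 4 in 2i and 6 between the controls, with no count over all genes. The block within medium was not run between media, since its blocks lie within them. Silencing genes passing in 2i numbered 1 with voom and 1 to 2 without 1 library, and 1 to 2 between the controls. Over all families, counts ranged from 26 to 68 higher in serum (36 as deposited), 67 to 337 higher in 2i (114), 0 to 82 lower in 2i (1) and 5 to 370 lower in the 2i control (182). Depth limits families with few reads, such as L1ME5, L1MEg1 and L1MEg2.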
